A study of Homo sapiens with 9 samples.

Results

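Regions of open chromatin that were called in a single library were examined in 9 ATAC-seq libraries of the human prostate cancer line VCaP and its derivative VCaP16. The members were chosen by their peak calls: peaks of all 9 lists on chromosomes 1 to 22 and X were merged wherever they overlapped by at least 1 bp, and a region belonged to this set if exactly 1 of the 9 libraries had a peak in it. Of 94773 merged regions, 21427 met this rule, which is 22.6% of all merged regions. The rule uses the calls of all 9 libraries and nothing about their groups, so the total of members, and how their scores and widths compare with those of other regions, are descriptions with no test. Differences between the groups of libraries, which the rule did not use, were tested over libraries.

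The libraries fell into 3 groups of 3. VCaP16 is an enzalutamide-resistant VCaP line grown in 16 µM enzalutamide, VCaP_ENZ held VCaP cells given 10 µM enzalutamide for 96 h, and VCaP_DMSO held VCaP cells given the solvent DMSO. All 3 groups are labelled as wild type and were grown in the same serum-containing medium. The labels name no VCaP16 library without the drug, so the line and its drug cannot be told apart, and nothing in them tells if replicates came from separate cultures or if VCaP16 is a single clone. The p-values below therefore measure the spread between these libraries, which may be technical.

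VCaP cells depend on the androgen receptor, a hormone-activated transcription factor, and enzalutamide blocks that receptor. In ATAC-seq the transposase Tn5 cuts DNA that is not wrapped tightly in nucleosomes and leaves sequencing adapters there. Promoters of active genes and strong enhancers are usually cut in most cells and give tall, broad peaks, whereas sites that are open in few cells, or open weakly, lie near the limit of detection of a peak caller. A site near that limit can be called in one library and missed in the next.

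Each deposited list gives a peak's position on the hg19 build and the authors' score, which never fell below 2 and was read as a −log10 p-value or q-value. The score depends on the depth of its library, so scores of different lists are not on a common scale. The position of a peak in its own list was used for tests, and raw scores, counts past a score and medians pooled over libraries only describe the members. The lists hold 53646 to 68921 peaks on these chromosomes, and their read depth is unknown. Without an hg19 annotation at hand, regions are given by coordinates and not by genes, sequence or repeat content.

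The number of libraries that called a region was split between both ends of its range. Regions called in 1 library (21427) and regions called in all 9 (33033) together outnumbered those called in 2 to 8 libraries (40313), and the class called in exactly 6 held the fewest, 4427. The single-library regions covered 5.31 Mb and each consisted of a single peak. Regions called in all 9 libraries covered 30.3 Mb. Just outside the rule stood 8865 regions called in exactly 2 libraries. Members had a median score of 4.02 and a median width of 223 bp, and regions called in exactly 2 libraries had a median score of 5.14 and a median width of their own peaks of 252 bp. In regions called in all 9 libraries the median score was 20.3 and the median width of the own peaks 578 bp. Score and width were thus higher with each added library over these classes.

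**Figure D1:**
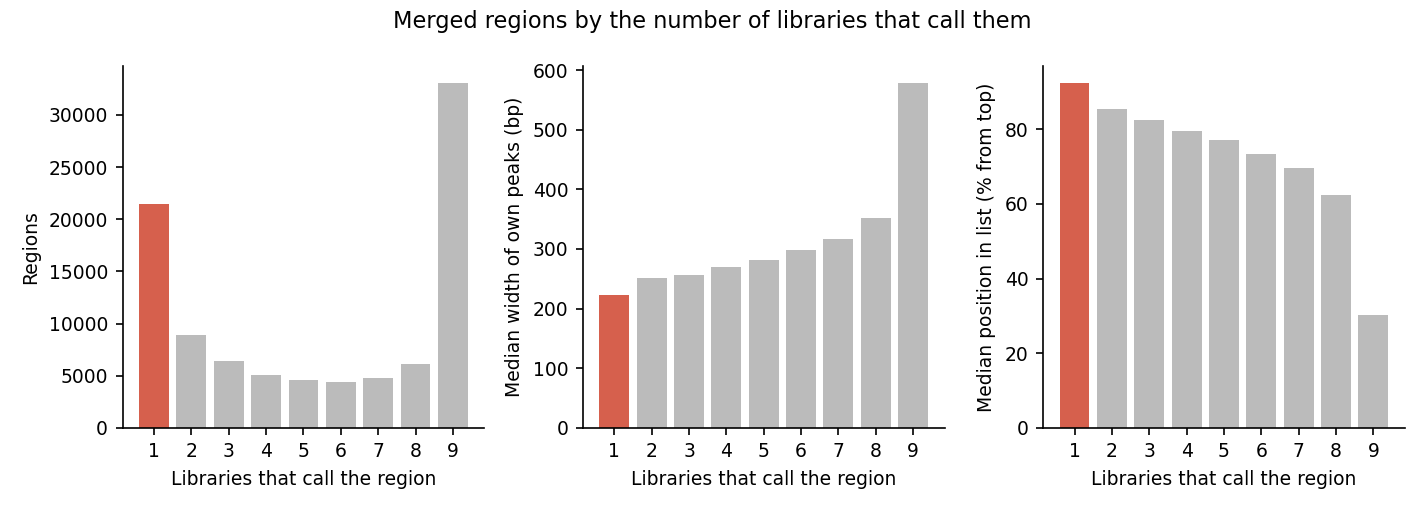
Merged regions by the number of libraries that call them (horizontal axis, 1 to 9), with single-library regions in red. The panels give the number of regions, the median width of the libraries' own peaks in bp and the median position of the score in its own list in percent from the top; single-library regions are numerous (21427), narrow (223 bp) and low in their lists (92.3%).

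The members were spread unevenly over the libraries. VCaP16 libraries 1, 2 and 3 held 2572, 2051 and 5570 of them, VCaP_ENZ libraries 1560, 2668 and 1458, and VCaP_DMSO libraries 1941, 2064 and 1543. VCaP16 replicate 3, which has the longest list, stood apart with 26.0% of all members, and the VCaP16 group held 47.6%. As a share of the regions a library called, members made up 4.55%, 3.66% and 8.22% in VCaP16, 2.97%, 4.41% and 2.8% in VCaP_ENZ, and 3.44%, 3.83% and 2.95% in VCaP_DMSO. The ranges of the groups overlapped.

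The mean number of members per library was 3398 ± 1899 in VCaP16, 1895 ± 671 in VCaP_ENZ and 1849 ± 272 in VCaP_DMSO (SD, n = 3 each). Against the 6 VCaP libraries, VCaP16 had 1525 more members per library (two-sided exact permutation test over 84 splits, p = 0.0595, 0.238 after Benjamini-Hochberg adjustment over 20 tests). The share was higher by 2.08 percentage points (exact permutation p = 0.0476, adjusted 0.238). Neither difference passed the adjustment. With 84 splits a single difference could not pass an adjustment over 20 tests on its own, so this does not show that the groups are alike. A region open only in VCaP16 also has fewer libraries of its line to be called in again than a region open only in VCaP cells. A comparison of 3 against 6 libraries can therefore favour single calls in VCaP16. VCaP16 exceeded VCaP_DMSO by 1548 members (exact permutation p = 0.2), and VCaP_ENZ exceeded VCaP_DMSO by 46 (exact permutation p = 0.9), in tests of 3 against 3 libraries that cannot give a p below 0.1.

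The order of the groups changed when all lists were cut to the same length. When the 53646 best-scored peaks were taken from every list, 16221 regions were called in a single library, and VCaP16 libraries 1, 2 and 3 held 1907, 1805 and 1405 of them, VCaP_ENZ libraries 2083, 1114 and 2060, and VCaP_DMSO libraries 1402, 2362 and 2083. VCaP16 then had 145 fewer members per library than the 6 VCaP libraries (exact permutation p = 0.631), and VCaP16 replicate 3, the highest with the lists as deposited, was among the lower libraries. The cut took the lowest-scored peaks from the longer lists and none from the shortest, that of VCaP_ENZ replicate 3. In VCaP16 replicate 3 the last 10% of the list held 2694 of its 5570 members. Its fall is thus partly built into the cut, and the new order does not show how the groups would rank at equal depth. Over the 9 libraries as deposited, the number of members went with the number of other regions called (Pearson r = 0.924, exact permutation p = 0.00043, adjusted 0.00086; Spearman rho = 0.85, exact permutation p = 0.00607, adjusted 0.00607, with 2 relations computed). Both counts come from the peak calls that the rule used, so this describes the lists and supports nothing about the groups; with lists of equal length r was -0.900 (exact permutation p = 0.00147), where more members leave fewer other regions by construction. Without VCaP16 replicate 3 and VCaP_ENZ replicate 2, the libraries farthest from the median of the number of other regions, Pearson r was 0.773 (exact permutation p = 0.0488, n = 7) and Spearman rho 0.679 (exact permutation p = 0.11). With 7 libraries Pearson r stayed past the threshold of 0.05 and Spearman rho did not. Without VCaP16 replicate 3 alone, VCaP16 exceeded the 6 VCaP libraries by 865 members per library (exact permutation p = 0.143). Without both longest lists (VCaP16 replicate 3 and VCaP_ENZ replicate 2), VCaP16 libraries 1 and 2 held 3943 and 3439 members. VCaP_ENZ libraries 1 and 3 then held 2387 and 2218, and VCaP_DMSO libraries 1, 2 and 3 held 2942, 2953 and 2211. With peaks of a score of at least 5 the mean was 2170 in VCaP16, 1088 in VCaP_ENZ and 997 in VCaP_DMSO.

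**Figure D2:**
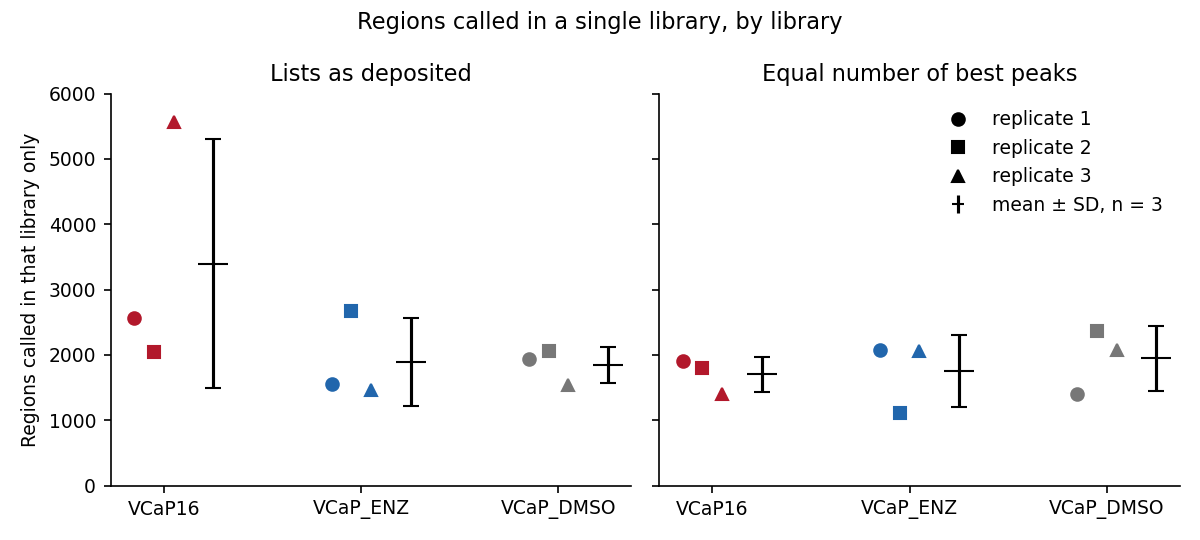
Number of regions called in one library only, per library (points, with a symbol for each replicate) and as mean ± SD of 3 libraries, for VCaP16, VCaP_ENZ and VCaP_DMSO. With the lists as deposited (left) VCaP16 replicate 3 stands at 5570; with the 53646 best peaks of each list (right) it falls to 1405 and all libraries lie between 1114 and 2362.

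Single-library regions were weak peaks of their own libraries. Their median position was 92.0%, 91.2% and 89.2% from the top of the list in VCaP16 libraries 1, 2 and 3, 93.0%, 93.0% and 92.8% in VCaP_ENZ, and 93.2%, 92.8% and 92.4% in VCaP_DMSO. All 3 VCaP16 libraries had their members higher in the list than any of the 6 VCaP libraries, with a difference of means of -2.10 percentage points (exact permutation p = 0.0119, the smallest that 84 splits can give, 0.238 after adjustment over the 20 tests). With lists of equal length the difference was -1.69 points (exact permutation p = 0.0119), and it was -0.898 points (exact permutation p = 0.107) without VCaP16 replicate 3. Over the 3 groups together the exact permutation p was 0.0286, with an adjusted value of 0.238. The separation of VCaP16 from the 6 VCaP libraries held with lists of equal length and peaks up to 100 bp apart merged. With peaks up to 500 bp apart merged it was lost, with VCaP_ENZ replicate 1 at 91.8% and VCaP16 replicate 1 at 92.0%. With a 50% overlap VCaP_ENZ replicate 2 (91.4%) also stood above VCaP16 replicate 1 (92.0%). With peaks of a score of at least 5 VCaP_DMSO replicate 2 (89.7%) stood above VCaP16 replicates 1 and 2 (90.1% and 91.0%). Position comes from the score, which decides the peaks that enter a list, so it is not independent of the rule. The imbalance of 3 against 6 libraries described for the counts applies to the difference of -2.10 points too.

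In all, 58.6% of the members lay in the lowest 10% of their own list, and 221 (1.03%) lay in its upper 50%, against 50.9% of all called regions. A score of at least 5 was reached by 6353 members (29.6%), against 86.4% of all called regions. A score of at least 10 was reached by 660 members (3.08%), against 60.4% of all called regions, and a score of at least 20 by 26 members, against 31.7%. The score decides which peaks enter a list, so these shares are bound to the rule and are given as a description. Of the 660 members with a score of at least 10, 323 (48.9%) came from VCaP16 replicate 3, and the other libraries had 17 to 63 each; with scores on no common scale these counts do not compare the libraries.

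Read the other way, the share of called regions that no other library called rose down every list. In the best 10% of each list 0 to 0.0174% of regions were called in that library only, and from 40% to 50% of the list 0.0753% to 1.0%. The share was 5.83% to 21.7% from 80% to 90% of the list and 18.4% to 42.6% in the last 10%. VCaP16 replicate 3 gave the highest value in both of these last bands. In the last 10% the VCaP16 libraries had 28.8%, 22.6% and 42.6%, the VCaP_ENZ libraries 20.1%, 28% and 18.4%, and the VCaP_DMSO libraries 22.7%, 24.8% and 19.8%. Even there, then, most regions of every library were also called in at least 1 other library.

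**Figure D3:**
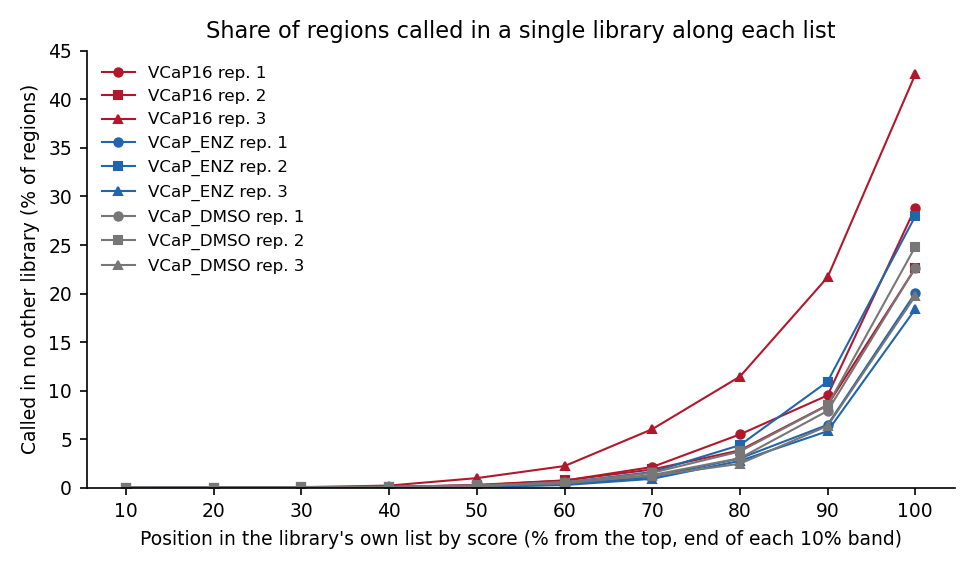
Share of a library's called regions that no other library called (vertical axis, percent), by position in that library's own list ordered by score (horizontal axis, bands of 10% from the top), with a line for each of the 9 libraries. The share stays at about 1.0% or less over the upper 50% of every list and reaches 18.4% to 42.6% in the last 10%, where VCaP16 replicate 3 is highest.

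A few members stood far above this bulk. The 2 members with the best position in each library, 18 in all, had scores of 17.6 to 59.1 and lay 6.99% to 33.1% from the top of their lists. The best of all was called in VCaP_DMSO replicate 1 at chr4:189294153-189294328 (hg19), with a score of 59.1. It is 176 bp wide, 217.6 kb from the nearest region called in all 9 libraries and 65.0 kb from the nearest region called in 2 or more. It is thus both strong and isolated, and little wider than the narrowest peak of its list (168 bp).

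The next in VCaP_DMSO replicate 1, at chr7:61970265-61970440 with a score of 44.4, lay at the other extreme. It was 389 bp from a region called in all 9 libraries that had a score of 1260 in the same library, a place 0.0052% from the top of the list. The best member of VCaP_DMSO replicate 3, at chr11:51582772-51583011 (score 30.2), lay 1.69 kb from an all-library region of score 154. In VCaP_DMSO replicate 2 the best member, at chr2:133015148-133015335 (score 27.7), lay 1.86 kb from one of score 110. All 3 of these strong single-library peaks sit beside regions from the top 1% of their lists.

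In the resistant line the best-placed member was chr5:11602493-11602699 in VCaP16 replicate 3, with a score of 27.2, 24.8% from the top of the list and 5.12 kb from an all-library region. VCaP16 replicate 1 was led by chr2:131968529-131968950 (score 21.3, 25.2% from the top), which is 56.3 kb from an all-library region. VCaP16 replicate 2 was led by chr4:89945172-89945499 (score 21.2, 27.4% from the top), at 5.29 kb. These 3 positions were lower in the list than those of the best members of the VCaP_DMSO libraries, at 6.99%, 20.6% and 17.1%.

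After short exposure to the drug the best member of VCaP_ENZ replicate 3 was chr19:30113412-30113567 (score 19.5, 28.1% from the top). With 156 bp it is 1 bp wider than the narrowest peak of that list. The best of VCaP_ENZ replicate 2 was chr5:59139431-59139635 (score 21.9, 30.1% from the top), 2.84 kb from an all-library region of score 106. That of VCaP_ENZ replicate 1, chrX:67365872-67366167 (score 18.2, 31.6% from the top), was 286.5 kb from the nearest all-library region. A minimum score of 5 or lists of equal length only drop low-scored peaks. All 18 best-placed members were therefore bound to keep their single call there. With peaks up to 100 bp apart merged all 18 kept it, and with peaks up to 500 bp apart merged 17 did. The exception was the region on chromosome 7.

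Many members were close to the narrowest peak their list holds. The narrowest peak was 166, 168 and 172 bp in the VCaP16 lists, 162, 160 and 155 bp in VCaP_ENZ and 168, 154 and 160 bp in VCaP_DMSO. Between 18.7% and 24.0% of a library's members were within 20 bp of that minimum, against 4.91% to 5.87% of all peaks in a list. The lower and upper quartiles of member width were 189 and 280 bp, 34.4% were no wider than 200 bp, and 348 (1.62%) were wider than 500 bp. A wide peak has more bases with which to meet a peak of another library, so width is not independent of the rule.

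Median widths of the members were 221, 227 and 241 bp in VCaP16, 217, 219 and 209 bp in VCaP_ENZ and 227, 211 and 209 bp in VCaP_DMSO. The VCaP16 mean exceeded that of the 6 VCaP libraries by 14.3 bp (exact permutation p = 0.0476, adjusted 0.238), with overlapping groups. Within every library, width and score of the members were weakly related across regions, with Spearman rho of 0.176 to 0.267; both values come from the same pile-up of reads, and regions are not replicates.

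The widest members formed a small group of their own, and 4 of the 5 were called in VCaP_DMSO replicate 2. The widest, chr13:100633512-100634764, spans 1253 bp with a score of 8.66 and lies 49 bp from a region called in all 9 libraries. Next was chr22:45402958-45404115, with 1158 bp and a score of 5.04, at 625 bp from such a region. Then came chr7:155088999-155089994, with 996 bp, a score of 14.7 and a distance of 74 bp. These 3 are broad peaks at the side of a shared region, and the regions on chromosomes 13 and 7 joined their neighbours when peaks up to 100 bp apart were merged. The other two lay apart: chr15:73660347-73661287 (941 bp, score 6.79) at 6.93 kb, and chr9:122219679-122220591, the only 1 of the 5 from the resistant line (VCaP16 replicate 3, 913 bp, score 8.56), at 87.2 kb.

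The position of the members relative to the open chromatin common to all libraries was not used by the rule and could be tested. The distance from a member to the nearest region called in all 9 libraries had a median of 25.3 kb, with quartiles of 10.2 and 62.5 kb. In all, 794 members (3.71%) lay under 1 kb from such a region, against 3.56% of the regions called in 2 to 8 libraries. Within VCaP16 replicates 1 and 3 the members had the smaller share, with 2.26% against 3.08% and 2.46% against 3.24%. In every other library the members had the larger share, such as 5.91% against 4.13% in VCaP_DMSO replicate 2. At the far end 66 members (0.308%) lay 1 Mb or more away, against 0.179% of the regions called in 2 to 8 libraries. Most members (60.3%) lay 10 to 100 kb away.

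Members lay slightly farther from shared open chromatin than the more often called regions of the same library, taken as those called in 2 to 8 libraries. Their median distance was 30.0, 22.7 and 27.9 kb in VCaP16, 24.1, 22.9 and 23.2 kb in VCaP_ENZ and 24.7, 22.9 and 23.0 kb in VCaP_DMSO. For the regions of the same libraries that were called in 2 to 8 libraries it was 23.1, 21.8 and 23.0 kb in VCaP16, 22.8, 22.2 and 22.9 kb in VCaP_ENZ and 21.6, 22.1 and 22.1 kb in VCaP_DMSO. The members were the farther ones in 9 of 9 libraries. On the scale of log10(distance + 1 bp) the difference of medians averaged 0.0385 ± 0.038 (SD, n = 9), a ratio of 1.09 that ran from 1.01 in VCaP_ENZ replicate 3 to 1.3 in VCaP16 replicate 1 (two-sided exact sign-flip permutation test over 512 flips, p = 0.00391, the smallest they can give). The compared regions are shared between libraries, so the 9 differences are not fully independent. Among the 660 members with a score of at least 10 the difference was 0.0928 and did not pass (exact permutation p = 0.0977).

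**Figure D4:**
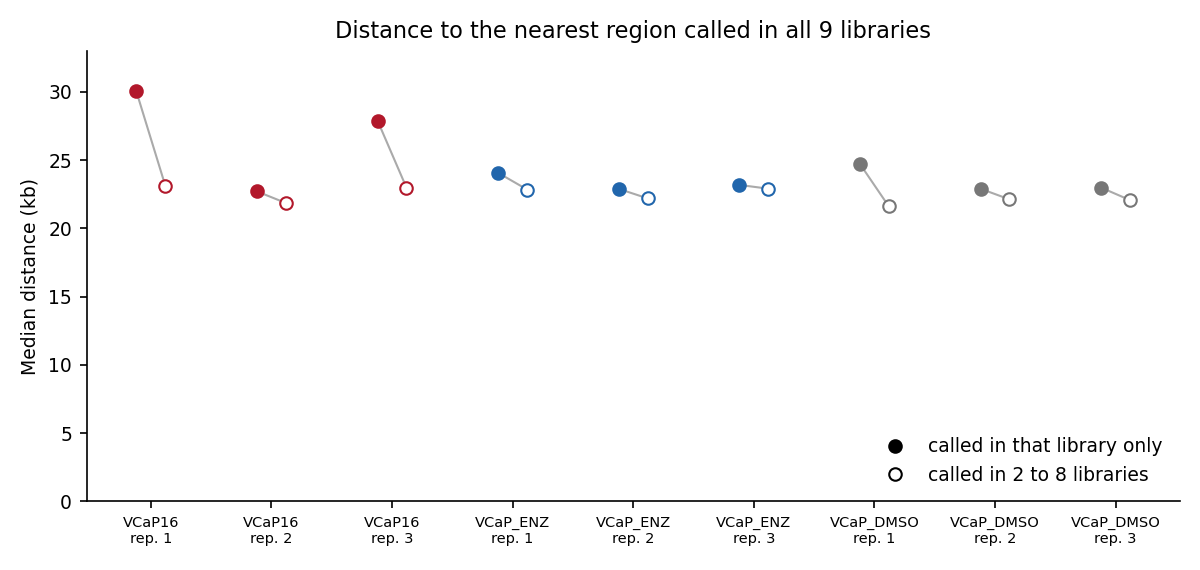
Median distance in kb to the nearest region called in all 9 libraries, per library, for regions called in that library only (filled) and for its regions called in 2 to 8 libraries (open), joined by a line. The filled point is the higher one in all 9 libraries, most in VCaP16 replicates 1 and 3, at 30.0 and 27.9 kb.

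The distance of the members differed among the VCaP16 libraries. VCaP16 replicates 1 and 3 had the farthest members, whereas VCaP16 replicate 2, at 22.7 kb, had the nearest of all 9 libraries. Mean medians were 26.9 ± 3.76 kb in VCaP16 and 23.5 ± 0.76 kb in the 6 VCaP libraries (SD, n = 3 and n = 6), a difference of 3.42 kb (exact permutation p = 0.0833, adjusted 0.278). Without VCaP16 replicate 1 the difference was 1256 bp (exact permutation p = 0.429), and the shift of members against regions called in 2 to 8 libraries was 0.0247 on the log10 scale (exact permutation p = 0.0234). VCaP16 replicates 1 and 3 again had the farthest members in lists of equal length, with 29.8, 23.9 and 28.2 kb in VCaP16 libraries 1, 2 and 3, 24.6, 22.1 and 24.7 kb in VCaP_ENZ and 24.3, 24.4 and 24.8 kb in VCaP_DMSO. In those lists the members of VCaP_ENZ replicate 2 were nearer than its more often called regions, and in the other 8 libraries they were farther. With peaks of a score of at least 5 the order was another: the median distance of members was 28627, 26738 and 30258 bp in VCaP16 libraries 1, 2 and 3, 26790, 24458 and 30965 bp in VCaP_ENZ and 25153, 22546 and 27914 bp in VCaP_DMSO. VCaP_ENZ replicate 3 then had the farthest members, and those of VCaP_ENZ replicate 2 and VCaP_DMSO replicate 2 were nearer than the more often called regions of their libraries. Distance had next to no relation with score across the members of a library, with Spearman rho of -0.0802 to 0.0577, and the median score was 3.87 for members under 1 kb and 4.14 for those 1 Mb or more from a shared region.

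The most remote members lay in long stretches without any region called in all 9 libraries. The farthest was chr13:57102640-57102890, called in VCaP_ENZ replicate 2 with a score of 6.67, at 2.68 Mb from such a region and 1.10 Mb from any region called in 2 or more libraries. Of the other 4 farthest members, 3 shared a stretch of chromosome 14: chr14:43084866-43085144 in VCaP16 replicate 3 (score 2.80, 2.2 Mb), chr14:42848553-42848718 in VCaP16 replicate 1 (score 4.72, 1.96 Mb) and chr14:42693483-42693753 in VCaP_DMSO replicate 1 (score 9.75, 1.81 Mb). The remaining one was chr5:26808119-26808298 in VCaP16 replicate 3 (score 2.05, 2.07 Mb). Only 2 of these 5 members were still single calls with a minimum score of 5, and 3 with lists of equal length, while all 5 were with peaks up to 100 or 500 bp apart merged. Chromosome 14 held 15 of the 66 members at 1 Mb or more (22.7%), against 2.82% of all members, and chromosome 13 held 10 (15.2%), against 3.05%. Of the 72 regions called in 2 to 8 libraries that lay as far away, chromosome 14 held 9 and chromosome 13 held 4, while chromosome X held the most, 15, against 5 of the remote members. The libraries that called the 5 farthest members came from all 3 groups.

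Some single calls had a near neighbour that the merging did not join. A region called in 2 or more libraries lay within 500 bp of 1522 members (7.1%), against 4.59% of the regions called in 2 to 8 libraries, which were measured in the same way. Within 100 bp it was 491 members (2.29%). This near group made up 4.82%, 6.73% and 4.63% of the members in VCaP16, 8.53%, 8.40% and 8.02% in VCaP_ENZ and 8.35%, 11.5% and 8.30% in VCaP_DMSO. All 3 VCaP16 libraries had smaller shares of such members than any of the 6 VCaP libraries, which was not tested. The same share for the other regions of each library is not given. It therefore cannot be told if this is a trait of the members or of the lists. Merging peaks up to 500 bp apart left 18808 single-library regions, so most members were single calls at that scale too.

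Members of one library did not gather beside each other. The nearest other member was of the same library for 13.3% of the members, and the libraries' shares of all members would give 13.9% for partners drawn in those shares. Among the 1513 members with another member under 1 kb away, the partner was of the same library in 109 cases (7.20%), and in the rest it was a single call of a different library. How close signal of one library is divided into peaks is set by the peak calling, so this share says nothing about gathering. By group, 36.7% of nearest members came from the same group, where the group shares would give 36.4%. For VCaP16 replicate 3, with the most members, the same-library share was 25.5%, against its 26.0% share of all members.

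Over the genome, members made up 17.9% of the merged regions on chromosome 19, the lowest share, and 29.3% on chromosome 21, the highest. Chromosomes 8 and 13 followed with 26.6% and 26.1%, and chromosomes 22, 16 and 17 were low with 19.1%, 19.3% and 19.5%. Both classes are parts of the same total: chromosome 19 had 45.5% of its regions called in all 9 libraries, but chromosome 21 had 34.6% called in all 9, close to the 34.9% of all chromosomes. Members, pooled over libraries, were farther than regions called in 2 to 8 libraries from an all-library region on 23 of 23 chromosomes. The gap was widest in proportion on chromosome 21, with medians of 23.8 and 16.2 kb.

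**Figure D5:**
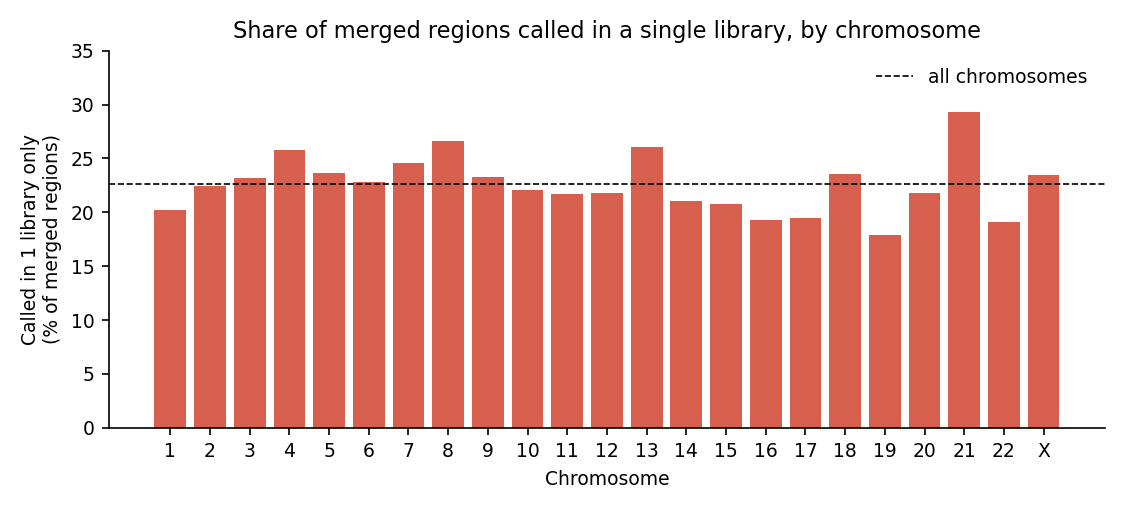
Share of merged regions that were called in a single library (vertical axis, percent), by chromosome, with the share over all chromosomes as a dashed line at 22.6%. Chromosome 21 is highest at 29.3% and chromosome 19 lowest at 17.9%.

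The split of the members over chromosomes was compared between the resistant line and VCaP cells. Chromosome X held 2.68% of a library's members on average in VCaP16 and 2.34% in the 6 VCaP libraries, and was the only 1 of 23 chromosomes (4.35%) on which these groups did not overlap (exact permutation p = 0.0833). No chromosome had an unadjusted exact permutation p below 0.05. A single chromosome could not pass an adjustment over 23 with 84 splits, so these tests do not show that the splits are alike. The 5 Mb windows with the most members were chr21:35000001-40000000, with 91 members among 350 regions, chr9:130000001-135000000, with 87 among 376, and chr11:65000001-70000000, with 83 among 454. Members made up 26%, 23.1% and 18.3% of the regions of these windows, against 22.6% of all merged regions. The windows thus stand out by count and not by a high share of members. Every library contributed to each of these windows, with at most 25.3% from one library.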

How the data were processed

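ATAC-seq peak lists of 9 libraries were used. Per the labels' protocols, cells for bulk ATAC-seq were crosslinked with 1% formaldehyde for 10 minutes and tagmented with Tn5; the same text describes a single-cell preparation, and the lists were treated as bulk. Tools named in the submitters' processing notes, without roles, are HOMER 3.12, MACS2 2.2.7.1 and BWA 0.7.15-r1140, with the build hg19; read filters and any Tn5 shift are not given in the sources used here. For each library the authors deposited an unpooled list of positions with a score, read as a −log10 p-value or q-value because none fell below 2 (a limit of 0.01).

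Peaks outside chromosomes 1 to 22 and X (0.242% to 0.295% of a list) were left out. Positions count from 1. Merging, distances (gap between nearest edges) and exact permutation tests were run in Python 3.11.15 with NumPy 2.4.6, pandas 2.3.3 and SciPy 1.17.1. On simulated lists with 1800 seeded single-library regions, 100% were recovered; since they were placed where no other peak lay, this checks the counting only. Tests over 3 groups used 280 splits, 3 against 6 libraries 84 and 3 against 3 libraries 20, with smallest p of 0.00357, 0.0119 and 0.1, adjusted by Benjamini-Hochberg over 20 tests.

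Named regions are the 2 members of each library with the best position in its list, the 5 widest, the 5 farthest from an all-library region and the 3 windows of 5 Mb with the most members. Members and tests were chosen with earlier results of these data known. Alternatives were a minimum score of 5, lists of equal length, merging up to 100 or 500 bp, a 50% overlap, members with a score of at least 10, leaving out libraries and permutation within replicate numbers.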

Additional observations from a re-analysis of the deposited data

How the results depend on the processing

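The 20 tests between groups, the shift in distance, the total of members and their Pearson correlation with other regions were recomputed; the replicate block covered the 20 tests only, and the chromosome tests and Spearman rho were not recomputed. Of 388 recomputed values, 336 neither turned in sign nor crossed the threshold, 48 turned in sign, 2 no longer passed and 2 counts moved by more than 1.5 times. No difference between groups passed the adjustment as reported or under any setting run, so all values that turned, except 1 correlation, are differences that had not passed. With so few libraries no single difference could pass an adjustment over 20 tests on its own, so this does not show that the groups are alike. The cause was not tested unless stated. The depth of the libraries is unknown, and it limits every count of calls given here.

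The total was 12766 regions with peaks of a score of at least 5, 660 with members of a score of at least 10, and 20214 to 21527 without single libraries. With lists of equal length VCaP16 minus the 6 VCaP libraries was -145 members and -0.296 percentage points of the list, and VCaP16 minus VCaP_DMSO was -243 members and -0.474 points; the correlation of members with other regions turned to -0.900, which follows from lists of fixed length. That correlation, recomputed under settings chosen after seeing the data, was 0.78 without both longest lists (exact permutation p = 0.052). The shift in distance stayed past its threshold without any single library (0.0247 to 0.0412 on the log10 scale) and was 0.0928, not passing, for members with a score of at least 10. For those members VCaP16 minus the 6 VCaP libraries was 1.57 points in list position and -2273 bp in distance, and VCaP16 minus VCaP_DMSO was 1.39 points in position and -15.3 bp in width.

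The small differences of VCaP_ENZ minus VCaP_DMSO turned most often. With peaks of a score of at least 5 they were 0.11 points of the list, 1 bp in width and 2200 bp in distance. Lists of equal length gave -197 members, 2 bp in width and -0.278 points in position. Merging up to 100 bp gave 0.333 bp in width and -0.232 points in position, and up to 500 bp 0.0428 points of the list, 1.33 bp in width and -0.43 points in position. A 50% overlap gave -0.229 points in position and 405 bp in distance. Members with a score of at least 10 gave -14 members, -0.36 points in position and 15368 bp in distance. Without both longest lists the differences were -399.5 members, -0.571 points in position and 698 bp in distance. Without single libraries they ran from -355 to 338 members, from -0.53 to 0.401 points of the list, from -3.5 to 4.33 bp in width, from -0.727 to 0.0427 points in position and from -883 to 430 bp in distance.

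Over regions called in 2 to 8 libraries, correlations of 9 pairs of libraries with the same replicate number were -0.00431 to 0.00928. For 18 pairs with different numbers they were -0.0107 to 0.0102. The values show no pairing by number, but they cannot tell if libraries of the same number share a culture or batch. With the replicate number as a block VCaP16 minus the 6 VCaP libraries was 1525 members (exact permutation p = 0.111 within blocks) and -2.10 points in position (exact permutation p = 0.037), and no test passed the adjustment there either.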

Other observations

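Regions called in exactly 2 libraries are the class next to the single calls. Of these 8865 regions, 3162 (35.7%) were called in a pair of the same group, while such pairs make up 25% of the 36 pairs of libraries. By group, pairs within VCaP16 made up 21.4%, pairs within VCaP_ENZ 6.91% and pairs within VCaP_DMSO 7.33% of them, and each group holds 3 of the 36 pairs (8.33%). VCaP16 replicate 3 took part in 4023 (45.4%) of these regions, and any 1 library takes part in 8 of the 36 pairs (22.2%). Shares of pairs take all lists as equally long, whereas that library has the longest list. Without the regions of that library 1542 of 4842 (31.8%) were called in a pair of the same group, again beside 25% of the pairs. These shares were not tested.

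In 512 windows of 5 Mb with at least 20 single-library regions, the library with the most members held a median of 26.1% of them. That library was VCaP16 replicate 3 in 426 windows, and over the whole genome it held 26.0% of all members, close to the median over windows. Its largest shares were 57.7% in chr13:75000001-80000000, with 15 of 26 members, and 55% in chr13:85000001-90000000, with 11 of 20; these windows were chosen after their values were seen.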
